A study of Mus musculus with 8 samples.

Results

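Ligands and receptors of axon guidance were examined for the repressive histone mark H3K27-me3 in fasted mouse liver. The genes were chosen by name, as protein-coding genes of chromosomes 1 to 19 whose symbols begin as those of the ephrins, Eph receptors, semaphorins, plexins, neuropilins, Slits, Robos, netrins and Unc5 receptors do. This gave 66 of 20720 protein-coding genes, which comprised 7 ephrins, 14 Eph receptors, 7 secreted semaphorins, 13 membrane-bound semaphorins, 9 plexins and neuropilins, 7 Slits and Robos, and 8 netrins and Unc5 receptors. The remaining gene, Unc50, is caught by the name pattern and has no known guidance role. The rule uses gene names alone.

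The mice were male C57BL/6 animals with a floxed JMJD3 gene, which encodes a demethylase of H3K27-me3. They received AAV-TBG-Cre or AAV-GFP at 8 weeks of age and were fasted for 16 h at 12 weeks after the injection. Control animals thus carry the floxed allele too. The TBG promoter directs Cre to hepatocytes, so that the other cells of the liver keep JMJD3. ChIP was done with the antibody Ab6002 on minced liver, which the labels call primary liver cells, and each virus group had 2 H3K27-me3 libraries and 2 input libraries from 2 mice. The deposited data are 1 list of enriched regions per group, made from both replicates. There is therefore no value per mouse, no spread between mice and no test between the groups, and the lists do not measure how far JMJD3 was lowered.

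The AAV-Cre list held 59267 regions that covered 73.7 Mb, with a median width of 753 bp, and the AAV-GFP list held 34586 regions over 14.9 Mb, with a median width of 231 bp. The lists give no read counts, so depth is unknown. More protein-coding genes were marked in the longer list, and counts of guidance genes are therefore read against the share of all protein-coding genes, which is given with the counts for the whole set. Fold enrichments over input were not compared between the lists. The strength of a region is given instead as the percent of its own list that had a p-value as low or lower, so that a small percent means a strong region. In chromatin of whole liver, fewer cells with the mark and less mark per cell cannot be told apart.

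Axon guidance cues are secreted or membrane-bound proteins that attract or repel a growing axon or a migrating cell through receptors on its surface. Ephrins act on Eph receptor tyrosine kinases by cell contact, semaphorins on plexins, often with a neuropilin as co-receptor, Slits on Robos, and netrins on Dcc and Unc5 receptors. Many of the genes also act in blood vessels and epithelia. H3K27-me3 is laid down by the Polycomb repressive complex 2 and is known to cover CpG-rich promoters of developmental genes that a tissue does not use.

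The promoters of 6 of these genes, each from 250 bases before to 50 bases after a RefSeq start site on GRCm38.p6, show what sequence lay under the mark and outside it. CpG dinucleotides are in capitals. The genes were picked to show different states of the mark. Where a gene had several RefSeq promoters, the one with the longest AAV-Cre cover was printed. The cover of these windows is therefore an illustration and not a separate result. They are the ephrin gene Efna5 (chr17:62881268-62881567, minus strand) and the receptor gene Ephb3 (chr16:21204545-21204844, plus strand), marked in both lists, Sema4c (chr1:36558332-36558631, minus strand) and Plxnb1 (chr9:109095186-109095485, plus strand), marked only in AAV-Cre, and Nrp1 (chr8:128358823-128359122, plus strand) and Efna1 (chr3:89280902-89281201, minus strand), marked in neither.
Efna5: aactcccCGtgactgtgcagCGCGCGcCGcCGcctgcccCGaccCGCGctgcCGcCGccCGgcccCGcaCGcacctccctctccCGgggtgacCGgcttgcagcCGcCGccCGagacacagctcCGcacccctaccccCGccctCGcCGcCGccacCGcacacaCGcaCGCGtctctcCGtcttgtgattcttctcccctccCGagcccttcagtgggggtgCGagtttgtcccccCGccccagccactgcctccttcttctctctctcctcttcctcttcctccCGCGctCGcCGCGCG
Ephb3: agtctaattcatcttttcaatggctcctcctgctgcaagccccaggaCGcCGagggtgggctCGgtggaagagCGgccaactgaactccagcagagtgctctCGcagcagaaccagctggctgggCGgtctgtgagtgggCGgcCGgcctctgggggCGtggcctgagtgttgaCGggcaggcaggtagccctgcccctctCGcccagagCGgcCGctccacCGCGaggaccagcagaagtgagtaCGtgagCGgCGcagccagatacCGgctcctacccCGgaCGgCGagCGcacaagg
Sema4c: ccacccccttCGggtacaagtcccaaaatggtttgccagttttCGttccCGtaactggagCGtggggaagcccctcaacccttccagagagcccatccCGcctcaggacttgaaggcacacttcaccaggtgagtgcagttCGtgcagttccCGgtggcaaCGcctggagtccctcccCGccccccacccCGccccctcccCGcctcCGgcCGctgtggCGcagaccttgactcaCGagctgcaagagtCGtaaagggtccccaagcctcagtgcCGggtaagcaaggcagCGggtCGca
Plxnb1: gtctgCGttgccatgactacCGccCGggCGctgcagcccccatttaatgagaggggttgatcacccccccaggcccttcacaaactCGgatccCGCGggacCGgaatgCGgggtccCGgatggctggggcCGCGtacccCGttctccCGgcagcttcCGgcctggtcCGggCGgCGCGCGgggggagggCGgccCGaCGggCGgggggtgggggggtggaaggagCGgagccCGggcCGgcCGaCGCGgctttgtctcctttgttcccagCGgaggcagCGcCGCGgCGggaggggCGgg
Nrp1: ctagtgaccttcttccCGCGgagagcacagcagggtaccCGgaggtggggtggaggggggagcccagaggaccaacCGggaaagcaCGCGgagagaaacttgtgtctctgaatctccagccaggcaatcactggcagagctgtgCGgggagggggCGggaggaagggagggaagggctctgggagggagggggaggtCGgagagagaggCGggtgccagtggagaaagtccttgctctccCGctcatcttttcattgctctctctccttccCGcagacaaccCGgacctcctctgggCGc
Efna1: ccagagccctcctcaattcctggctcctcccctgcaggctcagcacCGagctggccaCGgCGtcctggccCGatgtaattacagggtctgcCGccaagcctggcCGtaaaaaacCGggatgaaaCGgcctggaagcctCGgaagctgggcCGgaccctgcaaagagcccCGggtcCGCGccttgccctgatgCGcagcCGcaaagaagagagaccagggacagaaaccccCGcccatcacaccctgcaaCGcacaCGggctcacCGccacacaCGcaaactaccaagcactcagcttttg

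Regions covered all 300 bases of the Efna5 window in both lists. The Ephb3 window was covered over 300 bases in AAV-Cre and over 252 bases in AAV-GFP. The windows of Sema4c and Plxnb1 were covered over 300 bases in AAV-Cre and 0 in AAV-GFP. No base of the Nrp1 and Efna1 windows was covered. The windows hold 38 CpG in Efna5, 23 in Ephb3, 19 in Sema4c, 36 in Plxnb1, 14 in Nrp1 and 20 in Efna1. The counts of the unmarked Efna1 window and the marked Sema4c window were close, and their order depends on the start site used. Around the outermost start site, Sema4c had 22 CpG and Efna1 20.

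In both lists most axon guidance genes had the mark near a start site. Within 1 kb of a start site, 55 of 66 genes (83.3%) had a region in AAV-Cre, where 24.6% of all protein-coding genes did. In AAV-GFP it was 41 of 66 (62.1%), against 17.1% of all genes. The 41 genes of the AAV-GFP list were also marked in AAV-Cre, 14 genes (21.2%) were marked only in AAV-Cre, 0 only in AAV-GFP, and 11 in neither list. The share of all genes marked within 1 kb in a single list was 7.81% for AAV-Cre and 0.294% for AAV-GFP. Of the genes marked in AAV-Cre, 14 of 55 guidance genes and 1619 of 5107 of all genes had no AAV-GFP region within 1 kb. The higher share of guidance genes marked only in AAV-Cre was thus not seen among genes marked in AAV-Cre.

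A window of 15 kb on either side of a start site, the distance the study used, gave 57 marked genes in AAV-Cre (86.4%, against 43.1% of all genes) and 49 in AAV-GFP (74.2%, against 29.0%). Only in AAV-Cre were 8 genes (12.1%), a share near the 15.3% of all genes, and 0 were only in AAV-GFP, against 1.25% of all genes. For each of these 57 and 49 genes, the region nearest to it had no other protein-coding gene with a closer start site. Over the gene body, 55 genes had a region in AAV-Cre (83.3%, against 29.8% of all genes) and 51 in AAV-GFP (77.3%, against 21.4%). Counts over bodies were not adjusted for gene length. Bodies marked only in AAV-Cre were those of Ephb4, Plxnb1, Sema3g and Sema4c (6.06%, against 9.10% of all genes), and 0 were marked only in AAV-GFP, against 0.748%.

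The start site itself lay inside a region for 48 genes in AAV-Cre (72.7%, against 20.1% of all genes) and for 27 in AAV-GFP (40.9%, against 11.4%), the latter all among the 48. A region from the strongest 10% of its list lay within 15 kb of 47 genes in AAV-Cre (71.2%, against 20.5% of all genes) and of 29 in AAV-GFP (43.9%, against 12.0%). Such a region can lie at another gene, as at Ntn5, where the AAV-Cre region was 14850 bp away over the start site of Car11. In all 10 of these counts for a single list, the share of guidance genes exceeded that of all genes. No test was made of these differences.

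**Figure D1:**
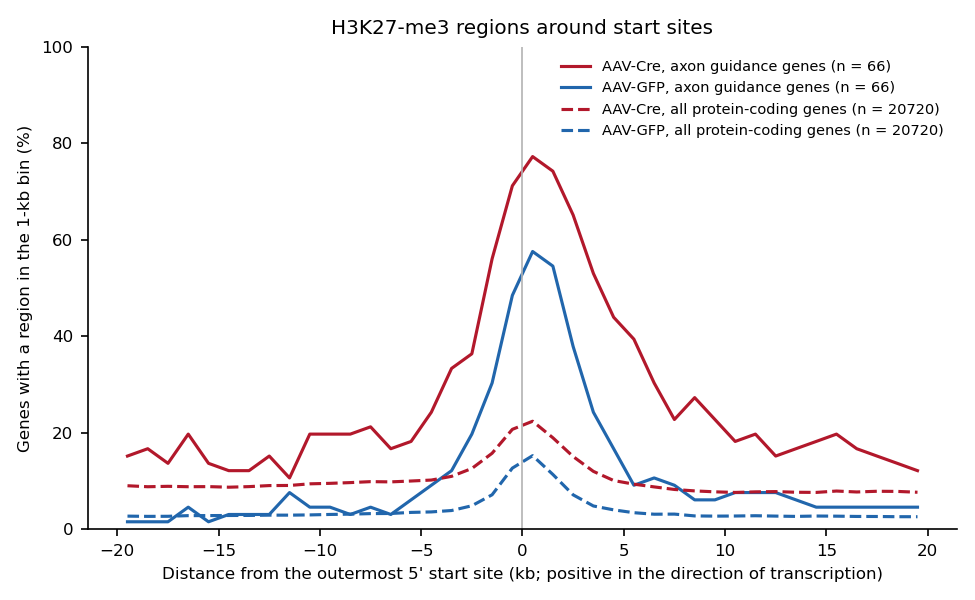
Percent of genes with an H3K27-me3 region in each 1-kb bin, by distance in kb from the outermost 5′ start site, for the 66 axon guidance genes (solid lines) and all 20720 protein-coding genes (dashed lines) in the AAV-Cre list (red) and the AAV-GFP list (blue). Both solid lines peak in the bin just downstream of the start site, at 77.3% in AAV-Cre and 57.6% in AAV-GFP.

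By distance from the outermost start site, the bin from 0 to 1 kb downstream held a region in 51 genes in AAV-Cre (77.3%) and 38 in AAV-GFP (57.6%). Of all genes, 22.4% and 15.2% had a region in that bin. From 19 to 20 kb upstream, the guidance genes were at 15.15% in AAV-Cre and 1.515% in AAV-GFP, and all genes at 8.99% and 2.69%. From 19 to 20 kb downstream, the guidance genes were at 12.1% and 4.545%, and all genes at 7.64% and 2.56%. In AAV-Cre the guidance genes stayed above all genes in every bin out to 20 kb on either side, with the widest gap from 1 to 2 kb downstream of the start site.

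Regions covered 103.2 kb of the 177.1 kb within 1 kb of the genes' start sites in AAV-Cre (58.3%) and 50.1 kb in AAV-GFP (28.3%). Around all genes, 16.4% and 7.62% of the same windows were covered. Within 15 kb the covered length was 460.9 kb in AAV-Cre (21.2%, against 6.94% around all genes) and 136.1 kb in AAV-GFP (6.27%, against 1.93%). The median gene had 5790 bp covered within 15 kb in AAV-Cre and 1479 bp in AAV-GFP, whereas the median over all genes was 0 bp in each list.

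Between lists whose narrowest regions were 300 bp in AAV-Cre and 120 bp in AAV-GFP, the regions at start sites also differed in width. Those within 1 kb of guidance genes were 71 in AAV-Cre, with a median width of 3082 bp, and 78 in AAV-GFP, with a median width of 462 bp. Regions within 1 kb of any protein-coding gene had median widths of 1950 bp and 455 bp, so that in AAV-GFP the widths were nearly alike. All 78 AAV-GFP regions overlapped an AAV-Cre region, and 51 of the 71 AAV-Cre regions (71.8%) overlapped an AAV-GFP region. For regions near any gene, the shares were 97.6% and 62.1%.

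**Figure D2:**
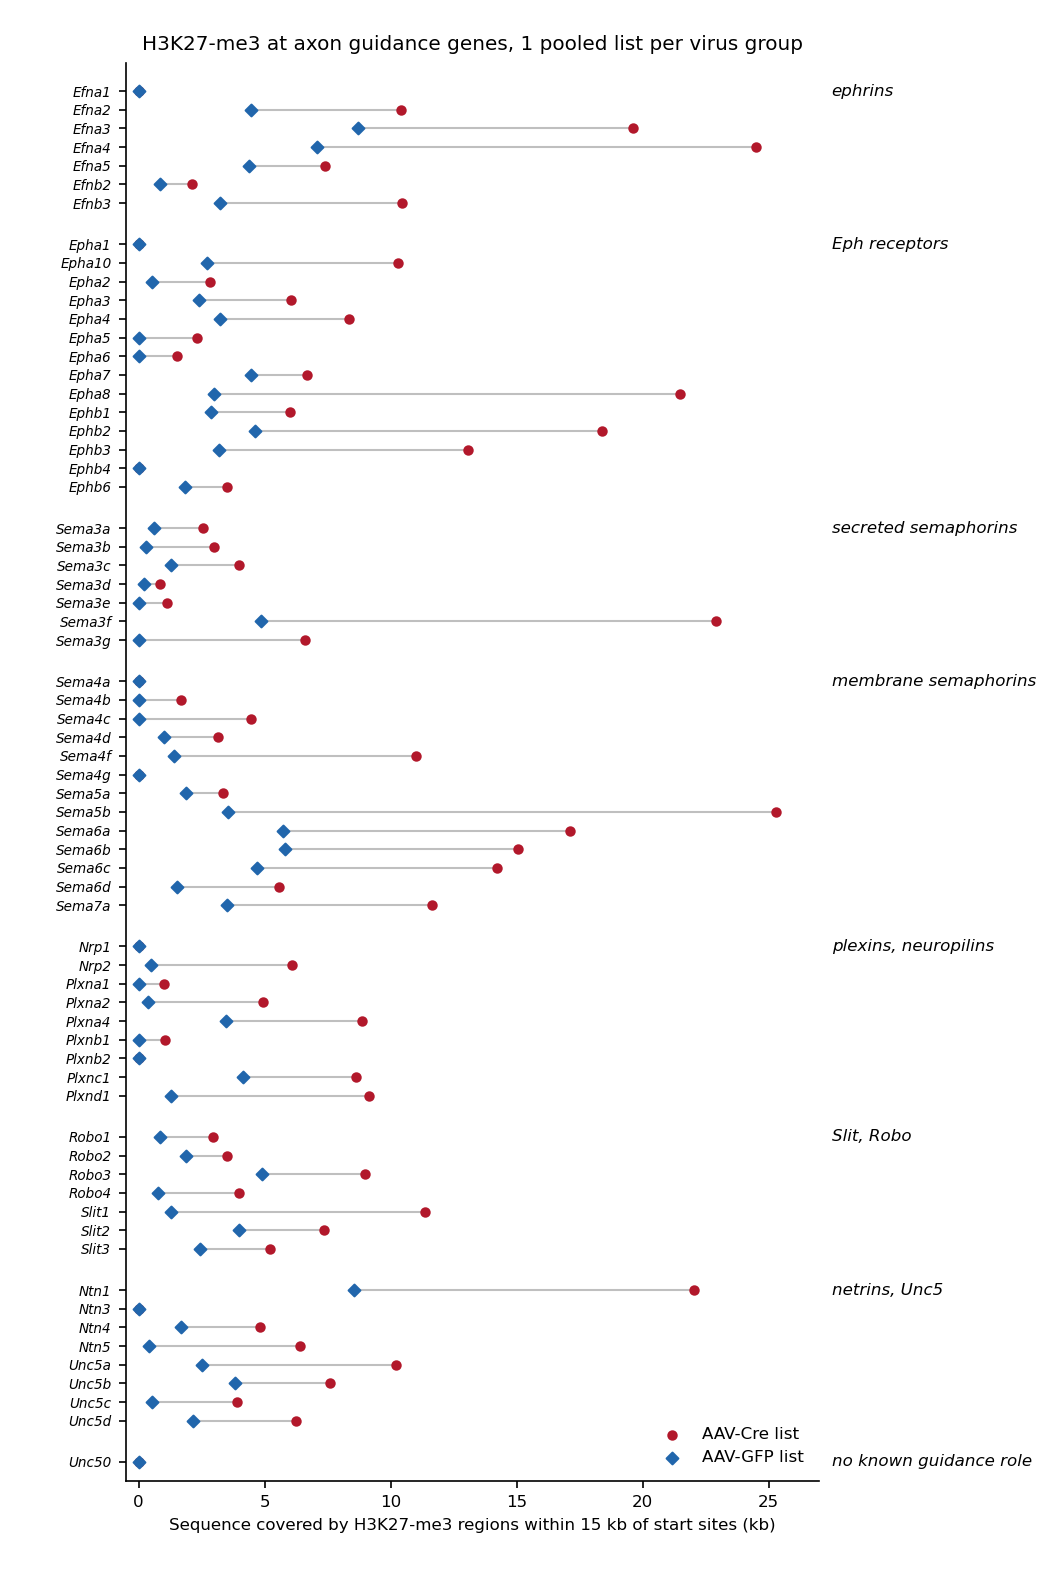
Sequence in kb within 15 kb of the start sites that was covered by H3K27-me3 regions, for each of the 66 genes by role, in the AAV-Cre list (red circles) and the AAV-GFP list (blue diamonds). A grey line joins the values of a gene; Sema5b has the longest AAV-Cre value (25293 bp) and Efna3 the longest AAV-GFP value (8700 bp), and 9 genes are at 0 in both.

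Among the ephrins, ligands that act by cell contact, 6 of 7 genes were marked within 1 kb in both lists. Efna3 on chromosome 3 (89313899-89322965, minus strand), which encodes a GPI-anchored ephrin, had the strongest region of all the guidance genes in AAV-Cre. This region spanned 6922 bp (89317106-89324027) over the start site, with a fold of 16.0 over input, and was among the strongest 0.0219% of its list. The AAV-GFP region at the same place spanned 5195 bp (89318029-89323223) and was among the strongest 0.110% of its list. It was the widest AAV-GFP region within 15 kb of any of the 66 genes. Regions covered 84.8% of the Efna3 body in AAV-Cre and 57.0% in AAV-GFP.

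Efna4, the neighbour of Efna3, had regions of 4810 bp and 1964 bp over its start site, which also reach Adam15. The body of Efna4 was covered over 93.75% in AAV-Cre and 20.03% in AAV-GFP. Efna1, in the same cluster at 89271733-89281142 and known for expression in endothelium and epithelia, was the only ephrin gene with no region. Its nearest regions lay 18987 bp away in AAV-Cre and 33624 bp away in AAV-GFP. The cluster thus held some of the strongest regions of either list and an unmarked gene side by side.

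Efna5 on chromosome 17, also GPI-anchored, had the longest AAV-Cre cover of the ephrin genes within 1 kb of its start sites, 2174 bp, against 1946 bp in AAV-GFP. The regions over its start site were 4404 bp (62878824-62883227, fold 9.15) and 2915 bp (62879175-62882089, fold 5.98). Efna5 has 2 start sites, whereas 1 start site allows at most 2001 bp of cover within 1 kb. Efna2 had 1381 bp covered within 1 kb in AAV-Cre and 246 bp in AAV-GFP. Of the transmembrane ephrins, Efnb3 had 2001 bp and 1142 bp, and Efnb2, a marker of arterial endothelium, had 821 bp and 456 bp. At these 4 genes the AAV-Cre cover was the longer, and it exceeded the AAV-GFP cover least at Efna5.

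Of the 14 Eph receptor genes, 11 were marked within 1 kb in AAV-Cre and 9 in AAV-GFP. Ephb2 on chromosome 4 (136647539-136835988, minus strand), a receptor for B ephrins, had the widest region at any guidance gene. It spanned 10740 bp in AAV-Cre (136830461-136841200, fold 9.42, strongest 1.87%), and the widest of the 8 AAV-GFP regions inside it spanned 2163 bp (strongest 2.43%). Over the Ephb2 body lay 35 AAV-Cre regions, of which 32 were more than 15 kb from a start site and 6 overlapped an AAV-GFP region. The AAV-GFP list had 9 regions there, and all 9 overlapped an AAV-Cre region.

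Ephb3 on chromosome 16 (21204755-21223305, plus strand), another receptor for B ephrins, had the longest cover of the receptors within 1 kb, 4002 bp in AAV-Cre and 2147 bp in AAV-GFP. The AAV-Cre region over its start site spanned 6180 bp (21201340-21207519, fold 12.5) and the AAV-GFP region 1559 bp (21204593-21206151, fold 6.71). They were among the strongest 0.592% and 0.590% of their lists. Ephb3 has 2 start sites, so its windows can hold more than the 2001 bp that 1 start site allows. With 1 start site each, Epha4, Epha8 and Ephb6 had all 2001 bp covered in AAV-Cre. Epha8, next to Ephb2 on chromosome 4, had 21472 bp covered within 15 kb in AAV-Cre and 2986 bp in AAV-GFP. Epha8 was thus much less covered in AAV-GFP, although its start site lay inside a region of each list.

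Epha10 and Ephb6, receptors that lack kinase activity, were marked in both lists, with 1873 bp and 2001 bp covered within 1 kb in AAV-Cre and 740 bp and 1173 bp in AAV-GFP. Epha3, Epha4, Epha7 and Ephb1 were also marked in both, with 1069 to 2079 bp covered within 1 kb in AAV-Cre and 775 to 1150 bp in AAV-GFP. Epha2, which is expressed in many epithelia, had no region within 1 kb. A region of 2494 bp in AAV-Cre, 7690 bp upstream of its start site, overlapped an AAV-GFP region of 539 bp.

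Epha5 and Epha6, both receptors for A ephrins, were marked within 15 kb only in AAV-Cre. Epha5 had a region of 1504 bp (chr5:84415219-84416722, fold 4.03, q = 1.4e-09, strongest 13.5%) and a region of 809 bp over the start site (84417029-84417837, q = 0.00123). The only AAV-GFP region over its body spanned 160 bp, 56104 bp from the nearest start site, with a q-value of 1. Epha6 had a region of 1515 bp over its start site in AAV-Cre (chr16:60605153-60606667, fold 3.73, q = 1.48e-06, strongest 22.9%). Its AAV-GFP regions were 120 bp and 124 bp wide, and the nearer lay 757602 bp from the start site. These q-values come from the authors' peak caller and compare a region with its input, not the groups with each other.

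Epha1 and Ephb4 had no region within 15 kb. For Epha1 (chr6:42358487-42373268), an epithelial receptor, the nearest regions lay 47338 bp away in AAV-Cre and 48032 bp in AAV-GFP. Ephb4 (chr5:137350109-137378669), the venous endothelial receptor of Efnb2, had a single AAV-Cre region of 510 bp in an intron, 27019 bp from a start site (137377532-137378041, q = 0.0124), and none in AAV-GFP within 47437 bp. That intronic region was among the weaker ones of its list (strongest 74.7%).

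All 7 secreted semaphorins, class 3 ligands of plexin and neuropilin complexes, were marked within 1 kb in AAV-Cre, and 4 of 7 in AAV-GFP. Sema3f on chromosome 9 (107681500-107710475, minus strand), a ligand of Nrp2, had the longest AAV-Cre cover of the class both within 1 kb (3373 bp, against 324 bp in AAV-GFP) and over its body (16820 bp, against 2796 bp). The AAV-Cre list had 11 regions over the body, the strongest of 4982 bp (107704827-107709808, fold 12.0, strongest 0.802%). The AAV-GFP list had 1 region of 2796 bp there. Sema3a, the ligand of Nrp1, had 1469 bp covered within 1 kb in AAV-Cre and 624 bp in AAV-GFP, Sema3b had 1658 bp and 292 bp, and Sema3c had 2001 bp and 684 bp. Sema3f therefore had the widest gap between the lists among these 4 genes. Start sites number 2 at Sema3f and Sema3a, 5 at Sema3b and 1 at Sema3c, and cover can rise with their number.

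Sema3e, which binds Plxnd1 directly, was marked within 15 kb only in AAV-Cre, by a region of 1113 bp over its start site (chr5:14025136-14026248, fold 3.95, q = 3.54e-07, strongest 20.3%). The AAV-GFP list had a region of 213 bp in an intron, 86425 bp into the gene, with a q-value of 0.979. Sema3g, known for its expression in endothelium, had 8 AAV-Cre regions within 15 kb and none in AAV-GFP, whose nearest region was 51660 bp away. The region over the Sema3g start site (chr14:31216537-31218530, 1994 bp) was weak (q = 0.113, strongest 95.9%) and reached Nisch. The next regions, at 31218855-31219802 and 31220553-31222027, were stronger (q = 2.27e-05, strongest 30.1%). Sema3d had 866 bp over its start site in AAV-Cre and a region of 196 bp in AAV-GFP, 1266 bp from the nearest start site, and these did not overlap.

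Of the 13 membrane-bound semaphorins, 10 were marked within 1 kb in AAV-Cre and 8 in AAV-GFP. Sema5b on chromosome 16 (35541145-35664732, plus strand), a transmembrane semaphorin with thrombospondin repeats, was the most covered gene within 15 kb in AAV-Cre, with 25293 bp, and had 3566 bp in AAV-GFP. The AAV-Cre region over its start site spanned 10208 bp (35534237-35544444, fold 8.33, strongest 0.0962%) and the AAV-GFP region 2799 bp (35540435-35543233, strongest 0.457%). Over its body lay 20 AAV-Cre regions and 10 AAV-GFP regions, and all 10 of the latter overlapped the former.

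Sema6c on chromosome 3 (95160457-95174024, plus strand), a transmembrane ligand, had the longest AAV-Cre cover of this class within 1 kb, 2975 bp, and 1057 bp in AAV-GFP. Sema6c has 3 start sites, which can give it longer windows than a gene with 1. It had strong regions at both ends. At the start site the AAV-Cre region spanned 4083 bp (95160544-95164626, strongest 0.403%). At the 3′ end a region of 3814 bp in AAV-Cre (95170574-95174387, fold 12.96, strongest 0.0607%) overlapped one of 2610 bp in AAV-GFP (95171713-95174322, fold 10.0, strongest 0.0434%). The AAV-GFP region at the 3′ end was the strongest of that list within 15 kb of any of the 66 genes.

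Sema6a, a ligand of A plexins, had an AAV-Cre region of 10530 bp over its start site (fold 5.74, strongest 3.56%), the second widest of the set, and 9 AAV-GFP regions inside it, the widest of 2475 bp (fold 2.52, strongest 14.8%). Sema6b, Sema6d, Sema4d, Sema4f and Sema7a were also marked within 1 kb in both lists, with 1654 to 2883 bp covered in AAV-Cre and 891 to 1649 bp in AAV-GFP. Sema5a had an AAV-Cre region of 3366 bp that began 136 bp from its start site (chr15:32244949-32248314), and AAV-GFP regions of 893 bp and 987 bp inside it, the nearer at 1418 bp. Sema5a thus counted as marked within 1 kb only in AAV-Cre although the same stretch was marked in both.

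Sema4c, a ligand of Plxnb2, was the most strongly marked of the 8 guidance genes with regions within 15 kb in the AAV-Cre list alone. Its region spanned 3801 bp over the start site (chr1:36555462-36559262, fold 5.65, q = 2.32e-14, strongest 8.41%), and no AAV-GFP region lay nearer than 89324 bp. Sema4b was marked only in AAV-Cre by upstream regions of 648 bp and 1067 bp (chr7:80174671-80175318, q = 5.93e-06, and chr7:80171815-80172881, q = 0.023), the nearer 11523 bp from a start site, and had none over its body. Sema4a (chr3:88435959-88461182) and Sema4g (chr19:44989101-45003397) had no region within 15 kb, the nearest AAV-Cre regions being 62044 bp and 36640 bp away and the nearest AAV-GFP regions 70717 bp and 46533 bp.

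Plexins and neuropilins, the receptors of semaphorins, were marked within 1 kb in 7 of 9 cases in AAV-Cre and 4 of 9 in AAV-GFP. Plxnc1 on chromosome 10 (94790866-94944835, minus strand), the receptor of Sema7a, was covered over the whole 2001 bp within 1 kb in both lists. Its region over the start site spanned 7306 bp in AAV-Cre (94939575-94946880, fold 14.9, strongest 0.157%) and 3921 bp in AAV-GFP (94942276-94946196, fold 4.25, strongest 1.63%). Sema7a, its GPI-anchored ligand, had a region of 4009 bp over the start site in AAV-Cre (strongest 0.206%) and 2455 bp in AAV-GFP (strongest 0.440%). Both genes of this pair were thus among the strongly marked ones in either list.

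Plxna4, a receptor of class 3 and class 6 semaphorins, also had all 2001 bp covered in AAV-Cre and 1824 bp in AAV-GFP. Its regions over the start site were 7738 bp (chr6:32583617-32591354, strongest 2.89%) and 2024 bp (32586972-32588995, strongest 0.870%). Plxnd1, the receptor of Sema3e, had the longest AAV-Cre cover over its body in this class, 9635 bp, and 1146 bp in AAV-GFP. Plxna2 had a region over its start site in both lists, of 3929 bp and 366 bp. Nrp2, the co-receptor of Sema3f, had a region of 1676 bp over its start site only in AAV-Cre, and farther into the gene a region of 3847 bp that held AAV-GFP regions of 274 bp and 212 bp.

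Plxnb1 and Plxna1 were marked within 15 kb only in AAV-Cre, by weak regions. Plxnb1, the receptor of Sema4d, had regions of 748 bp over its start site (chr9:109094905-109095652, q = 0.139, strongest 98.4%) and of 304 bp beside it (109095812-109096115, q = 0.164, strongest 99.0%). Plxna1, a receptor of class 3 semaphorins, had a region of 993 bp that ended 409 bp upstream of a start site (chr6:89363029-89364021, q = 0.0086, strongest 73.1%). With a q-value of 0.05 or lower, Plxnb1 was in neither list. Nrp1 (chr8:128358604-128503363), co-receptor of Sema3a and of vascular endothelial growth factor, had no region nearer than 67647 bp in AAV-Cre and 217336 bp in AAV-GFP. Plxnb2 (chr15:89155549-89180788), the receptor of Sema4c, had none nearer than 20199 bp and 20846 bp.

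All 7 Slit and Robo genes were marked within 1 kb in AAV-Cre, 5 of 7 in AAV-GFP, and all 7 within 15 kb in both. Slit3 on chromosome 11 (35121224-35708507, plus strand), a secreted ligand of Robos, had a region of 4292 bp over its start site in AAV-Cre (strongest 1.55%) and of 1431 bp in AAV-GFP (strongest 0.720%). Its body held the most AAV-Cre regions of all 66 genes. There were 53 in AAV-Cre, of which 51 lay more than 15 kb from the start site, 50 were intronic and 4 overlapped an AAV-GFP region. The AAV-GFP list had 9 there, of which 6 overlapped an AAV-Cre region. Covered length over the Slit3 body was 47307 bp in AAV-Cre, or 8.05%, and 2660 bp in AAV-GFP, or 0.453%.

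Slit1 had 32 AAV-Cre regions and 13 AAV-GFP regions over its body, and all 13 overlapped an AAV-Cre region. A region of 2353 bp lay over its start site in AAV-Cre (chr19:41742324-41744676, strongest 22.9%), and the AAV-GFP list had none nearer than 4097 bp. Slit2 had 3 regions over its body in AAV-Cre and 4 in AAV-GFP, those at its 5′ end included. Its widest regions were 4372 bp (chr5:47983103-47987474, strongest 2.45%) and 3277 bp (47983386-47986662, strongest 8.37%). The plot of long genes shows these differences between the Slits, with regions spread along Slit1 and Slit3 and gathered at the start of Slit2.

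Robo3 on chromosome 9 (37415669-37433246, minus strand), a receptor known for its part in midline crossing, was covered over 4002 bp within 1 kb in AAV-Cre and 3041 bp in AAV-GFP. A single AAV-Cre region of 8254 bp (37427150-37435403, fold 7.61, strongest 3.43%) held AAV-GFP regions of 1171 bp and 3287 bp. Robo1 and Robo2 were covered over 2001 bp and 2225 bp within 1 kb in AAV-Cre and over 677 bp and 1085 bp in AAV-GFP. Robo4, the endothelial member of the family and the neighbour of Robo3, had a region of 353 bp within 1 kb in AAV-Cre (q = 0.0086) and none in AAV-GFP. Farther into Robo4, an AAV-Cre region of 2179 bp (37406900-37409078, strongest 7.50%) overlapped 3 AAV-GFP regions.

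**Figure D3:**
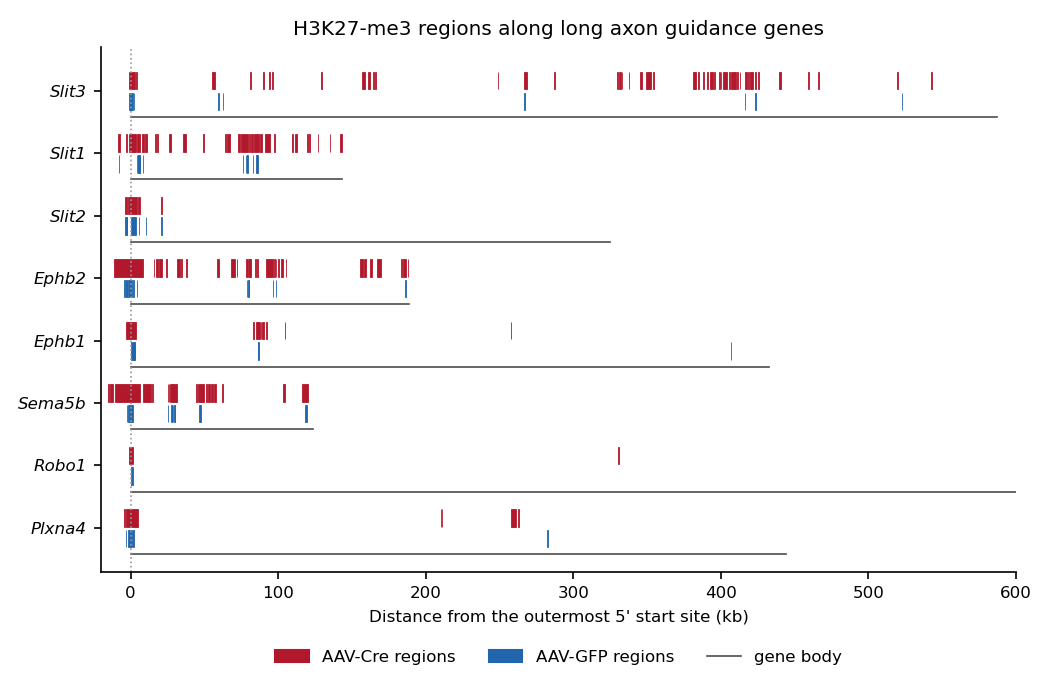
H3K27-me3 regions along 8 long genes, by distance in kb from the outermost 5′ start site in the direction of transcription. AAV-Cre regions are in red and AAV-GFP regions in blue. A grey line of the gene's length, cut at the right edge, starts at that site and stands for the body. The Robo1 line does not show the true extent, since its start site (72663149) lies inside the body (72308306-73046095). Slit3 has 53 AAV-Cre and 9 AAV-GFP regions over its body, whereas Slit2 has 3 and 4.

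Of the netrins and Unc5 receptors, 7 of 8 were marked within 1 kb in AAV-Cre and 5 of 8 in AAV-GFP. Ntn1 on chromosome 11 (68209364-68400823, minus strand), the secreted ligand of Dcc and Unc5 receptors, had the longest cover of the group both within 1 kb (4002 bp in AAV-Cre, 2770 bp in AAV-GFP) and over its body (21120 bp and 8476 bp). Its AAV-Cre regions over start sites spanned 10208 bp (68383046-68393253, fold 11.6, strongest 0.633%) and 7672 bp (68394448-68402119, fold 10.7, strongest 1.43%). The AAV-GFP regions over start sites were 3375 bp (68384253-68387627, fold 3.89, strongest 4.03%) and 877 bp (68400034-68400910, fold 4.14, strongest 5.04%). The AAV-GFP list had more regions over the Ntn1 body, 15 against 9, though less sequence was covered. Ntn1 has 2 start sites, so its windows of 1 kb are longer than those of a gene with 1.

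Ntn4, a netrin of basement membranes, had 1696 bp covered within 1 kb in AAV-Cre and 908 bp in AAV-GFP. Unc5a, Unc5c and Unc5d, receptors for netrins, had 2001 to 2210 bp covered in AAV-Cre and 529 to 1393 bp in AAV-GFP. Unc5b, the Unc5 receptor known from endothelium, had no region over a start site in either list. An AAV-Cre region of 4132 bp (chr10:60826430-60830561, fold 9.92, strongest 1.93%) began 821 bp from the nearest start site. Of the AAV-GFP regions, 4 overlapped that stretch, from 1106 bp from that start site on. Ntn5 had a region of 2719 bp over a start site in AAV-Cre (chr7:45684261-45686979, q = 3.64e-09), which also reached Sec1, and AAV-GFP regions of 160 bp and 120 bp inside it. Ntn3 (chr17:24203848-24209531) had no region within 172086 bp in AAV-Cre or 214236 bp in AAV-GFP. Unc50 (chr1:37430139-37439124) had none within 26731 bp and 29173 bp.

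**Figure D4:**
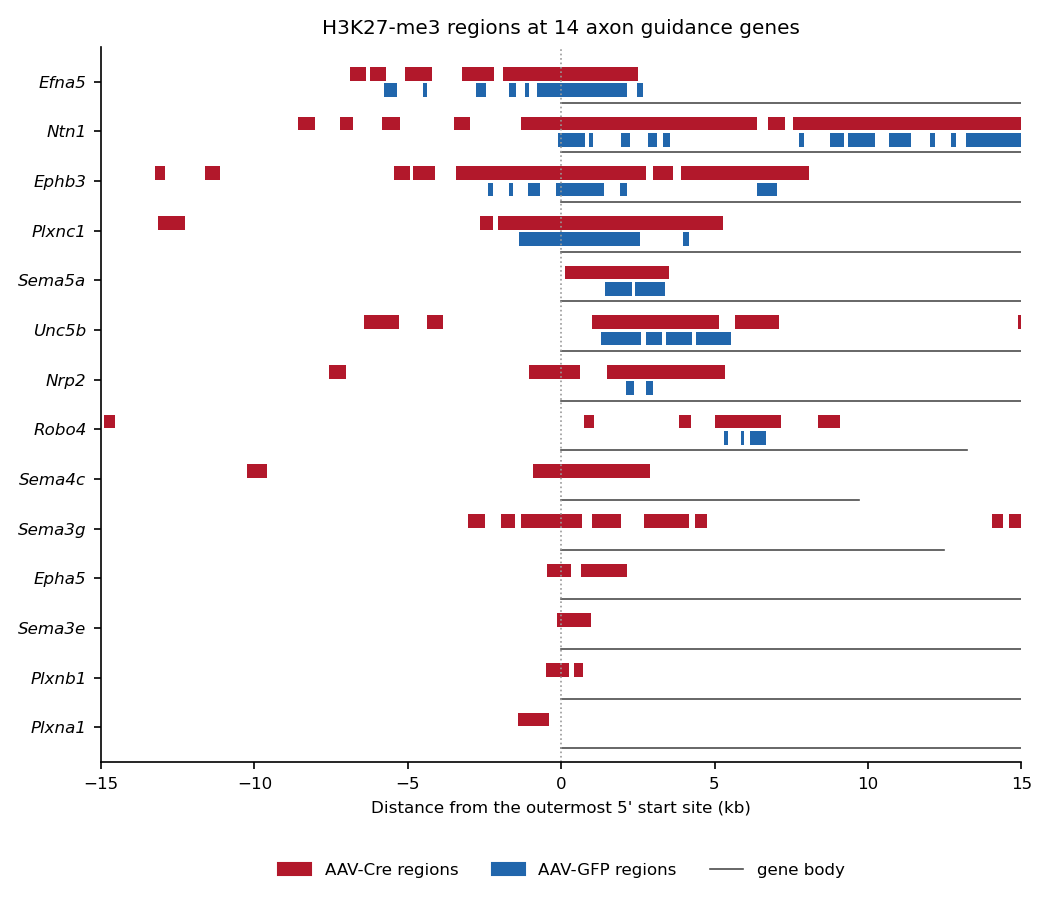
H3K27-me3 regions within 15 kb of the outermost 5′ start site of 14 axon guidance genes, by distance in kb in the direction of transcription, with AAV-Cre regions in red, AAV-GFP regions in blue and the gene body as a grey line. Efna5, Ntn1, Ephb3 and Plxnc1 are marked over the start site in both lists, the AAV-GFP regions of Sema5a, Unc5b, Nrp2 and Robo4 lie downstream of it, and Sema4c, Sema3g, Epha5, Sema3e, Plxnb1 and Plxna1 have no AAV-GFP region in this window.

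The 14 genes marked within 1 kb only in AAV-Cre were of several kinds, and 10 of them are on the map of regions around start sites. Of these 14 genes, Epha5, Epha6, Plxna1, Plxnb1, Sema3e, Sema3g and Sema4c had no AAV-GFP region within 15 kb either. The other 7, Nrp2, Ntn5, Robo4, Sema3d, Sema5a, Slit1 and Unc5b, had an AAV-GFP region between 1106 bp and 5158 bp from a start site. The 8 genes marked within 15 kb only in AAV-Cre were these 7 without AAV-GFP regions and Sema4b. Their strongest regions ranged from the strongest 8.41% of the list at Sema4c to 98.4% at Plxnb1.

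Known ligand and receptor pairs did not share a state throughout. Sema7a and Plxnc1 were marked within 1 kb in both lists, as were Slit2 with Robo1 and Robo2. Sema3a was marked in both lists and its co-receptor Nrp1 in neither, Efnb2 in both and its receptor Ephb4 in neither. Sema4c was marked only in AAV-Cre and its receptor Plxnb2 in neither, whereas Sema3e was marked only in AAV-Cre and its receptor Plxnd1 in both.

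Beyond the start sites, the marked bodies were unevenly filled. In AAV-Cre 7 of the 66 genes (10.6%) had 10 or more regions over the body, namely Slit3, Ephb2, Slit1, Sema5b, Epha10, Sema3f and Sema6a, and 3.06% of all genes did. In AAV-GFP it was 4 genes (6.06%), Ntn1, Epha10, Slit1 and Sema5b, against 1.49% of all genes. Regions over bodies and more than 15 kb from a start site were 191 in AAV-Cre, of a median width of 702 bp, and 59 in AAV-GFP. Of these, 26 in AAV-Cre (13.6%) and 38 in AAV-GFP (64.4%) overlapped a region of the other list, lower shares than at the start sites. Over all regions of each list, wherever they lay, the shares were 24.2% and 86.4%. A q-value of 0.05 or lower was reached by 88.5% of the 191 and 25.4% of the 59 regions. For all regions of the lists it was 88.6% and 46.9%. Over the bodies as a whole, 4.46% of the sequence was covered in AAV-Cre and 0.972% in AAV-GFP, against 3.36% and 0.798% of all gene bodies, so that the guidance genes were closer to all genes here than near their start sites.

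CpG content was counted in the 300 bases around the outermost start site, a measure that the choice of genes did not use. The motif searched was CG, which reads the same on both strands. It occurred in the windows of all 66 guidance genes and of 95.0% of all genes. The median guidance gene had 22 CpG (range 2 to 56), against 13 in all genes. The 41 genes marked within 1 kb in both lists had a median of 23, the 14 marked only in AAV-Cre 22.5 and the 11 marked in neither 14. For all genes in these states, the medians were 16, 7 and 12. The ranges overlapped widely, from 2 to 56 in the genes marked in both lists and from 4 to 31 in those marked in neither.

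**Figure D5:**
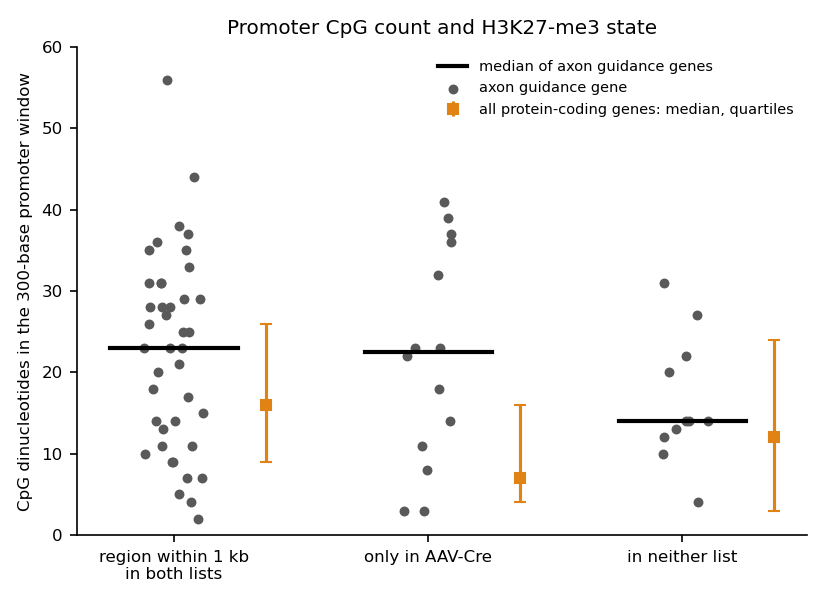
CpG dinucleotides in the 300 bases around the outermost start site, from 250 bases before to 50 after it, for the 66 axon guidance genes (points) by their H3K27-me3 state within 1 kb, with the median of each group (black line) and the median and quartiles of all protein-coding genes in that state (orange). The medians of the guidance genes are 23, 22.5 and 14, and the points of the 3 groups overlap.

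Other genes of the pathway were counted from lists made by role, with earlier results of these data known. Of 27 further guidance ligands and receptors, 21 were marked within 1 kb in AAV-Cre (77.8%, against 24.6% of all genes) and 20 in AAV-GFP (74.1%, against 17.1%). Cntn4, a contactin, was marked only in AAV-Cre, and 6 genes, among them the netrin receptors Dcc and Neo1, were marked in neither. Of 43 genes for intracellular steps of guidance, 16 were marked in AAV-Cre (37.2%) and 13 of 43 in AAV-GFP (30.2%), closer to the shares of all genes. The 3 marked only in AAV-Cre (6.98%, near the 7.81% of all genes) were Dock1, an activator of Rac, Limk1, a kinase of cofilin, and Srgap3, a Robo effector. Within 15 kb the counts were 21 and 20 of the ligands and receptors (77.8% and 74.1%) and 25 and 17 of the intracellular genes (58.1% and 39.5%), against 43.1% and 29.0% of all genes. Among the intracellular genes, 9 were marked within 15 kb only in AAV-Cre (20.9%, against 15.3% of all genes). Arhgap39 alone was marked there only in AAV-GFP (2.33%, against 1.25%).

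Marker genes of liver cell types were counted in the same way within 1 kb, since the chromatin came from whole tissue. Of 19 hepatocyte genes, such as Alb and Ttr, 0 were marked in either list. All 10 neuronal genes and all 20 developmental regulators were marked in both lists. Against 24.6% and 17.1% of all genes in AAV-Cre and AAV-GFP, respectively, marked genes were 4 and 2 of 10 endothelial, 8 and 8 of 10 stellate cell, 2 and 1 of 9 Kupffer cell and 8 and 5 of 10 cholangiocyte genes. Of the endothelial markers, Kdr and Pecam1 were marked within 1 kb in both lists and Clec4g and Egfl7 only in AAV-Cre. Cdh5, Eng, Lyve1, Stab2, Tek and Tie1 had no region within 1 kb in either list. Within 15 kb, 7 of the 10 were marked in AAV-Cre and 3 in AAV-GFP, against 43.1% and 29.0% of all genes. Of the 8 guidance genes listed as known from endothelium, 5 were marked in AAV-Cre (62.5%) and 2 in AAV-GFP (25%), and Efna1, Ephb4 and Nrp1 in neither list. The Kupffer cell genes (22.2% and 11.1%) and, in AAV-GFP, the endothelial genes (20%) were near the shares of all genes. The part of different cell types in these values was not tested.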

How the data were processed

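H3K27-me3 ChIP-seq and input DNA were sequenced from livers of 2 mice per virus group. The authors used the AQUAS histone pipeline with a pooled input and mapped reads to mm10. Per the labels, the tools were BWA 0.7.13, SAMtools 1.2 and Picard 1.126. The authors called peaks with MACS, kept peaks that overlapped across replicates and deposited 1 list per group. Narrow peaks split broad domains into several regions. For each peak the authors deposited a fold enrichment, which is a ratio over local input, and −log10 values of the p-value and q-value. The deposited display score was not used. No read counts, hence no depth or intervals, were used here.

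Groups were taken from the labels. Gene models were GENCODE M21 on GRCm38, the assembly that mm10 names, with the start sites of basic protein-coding transcripts. A gene was marked when a region touched the window of 1 kb or 15 kb around a start site or its body, and 1 bp of overlap made regions of the lists shared. Covered length within 1 kb rises with the number of start sites, since 1 start site allows at most 2001 bp. Promoters came from the RefSeq table on GRCm38.p6, which held 57 of the 66 genes, and CpG counts came from the genome at the outermost start site. Of the listed markers, 19 of 20 hepatocyte and 9 of 10 Kupffer cell genes were found.

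The members and lists were chosen with earlier results of these data known. Values are given in full for the genes of each role with the longest AAV-Cre cover within 1 kb and over the body, those marked within 15 kb in only 1 list or in neither, and those with 1 of the 5 widest regions of a list. Counts and lengths have no test, since there is 1 list per group. Alternatives were q-values, a minimum width, equal numbers of peaks, other windows and other start sites. The functions were tested on simulated data. Python 3.11.15, numpy 2.4.6 and matplotlib 3.10.9 were used.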

Additional observations from a re-analysis of the deposited data

How the results depend on the processing

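With 1 list per group and no read counts, neither the spread between mice nor depth can be given. Replicates could not be left out in turn, since each was pooled with the other before deposit. No paired analysis was possible because replicates have no values of their own here. Most counts of marked genes stayed within 1.5 times their value under every alternative tried. The exception was the number marked within 15 kb only in AAV-Cre, which was 13 in place of 8 when regions had to be at least 300 bp wide, since the AAV-Cre list has no narrower region and AAV-GFP then lost Nrp2, Ntn5, Sema3a, Sema3b and Sema3d. The share of all genes marked only in AAV-Cre rose from 15.3% to 22.3% under that setting. With equal numbers of 34586 peaks per list, 6 genes were marked only in AAV-Cre, without Plxna1 and Plxnb1, the share of all genes was 10.3%, and AAV-Cre covered 401.7 kb within 15 kb.

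The length covered within 15 kb, 460.9 kb in AAV-Cre and 136.1 kb in AAV-GFP, was 442.6 and 114.1 kb with q-values up to 0.05, and 426.1 and 103.9 kb with q-values up to 0.01. It was 474.9 and 136.5 kb with the start sites of all protein-coding transcripts, and 446.7 and 132.3 kb with the outermost start only. With windows of 5 kb it was 301.1 and 111.1 kb, and with windows of 50 kb 727.3 and 176.1 kb. With a width of at least 300 bp, AAV-GFP covered 110.5 kb. Leaving out Unc50, an alternative chosen after seeing the data, changed the number of genes to 65 and no count of marked genes.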
